A study of Mus musculus with 3 samples.

Results

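These cells are neural stem cells that held several messages of the immediate early genes Egr1, Fos, Junb and Ier2. A cell was a member if it held at least 3 UMIs (unique molecular identifiers, each standing for 1 captured RNA molecule) summed over these 4 genes and at most 1 UMI summed over 8 genes of dividing cells, Top2a, Cenpf, Ube2c, Birc5, Ccnb2, Hmmr, Cdca8 and Ckap2l. The rule found 217 of the 9145 neural stem cells kept, which is 2.37% (exact binomial 95% interval 2.07 to 2.71), of 33927 cells kept in the whole study. The levels of these 12 genes chose the members, so they are described and support nothing.

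Cortex of C57BL/6 mouse embryos at E14.5 gave neurospheres, the source of the neural stem cells, in Neurobasal medium with B27 and with EGF and FGF2 at 20 ng/mL each, and only the first 3 passages were used. The astrocytes were cortical and kept in DMEM-F12 with B27 and 10% serum, and the labels do not say whether they came from postnatal cortex or from neurospheres, although they give E14.5 for these samples too. The MIM-treated astrocytes had been moved to MIM, a serum-free mix of DMEM-F12 and Neurobasal with B27, N2, FGF2 at 20 ng/mL and up to 6 added metabolites (cysteine, glycine, methionine and threonine as amino acids, with putrescine and S-adenosylmethionine), for at most 5 days; the combination and day used here are not given. All cells were detached with trypsin and fixed in methanol before 10x Genomics capture. Each of the 3 cultures gave 1 library, so no difference has a replicate check, no test over samples was possible, and every interval below is an exact 95% interval that covers counting error only.

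Immediate early genes are transcribed within minutes of a stimulus from factors that are already present in the cell, such as serum response factor with its ETS partners and CREB. Growth factors such as EGF and FGF2 reach them through the RAS and ERK kinase cascade, and handling, wounding and enzymatic detachment are also known to induce them. Egr1 encodes a zinc finger transcription factor, Fos and Junb encode partners of the AP-1 transcription factor, and Ier2 encodes a small nuclear protein. ERK signalling is in turn held back by products that it induces, among them the Sprouty proteins and the ERK phosphatase Dusp6.

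By GENCODE vM21 on mm10, Fos lies on chromosome 12 from 85473890 to 85477273, Junb on chromosome 8 from 84974484 to 84978718 and Ier2 likewise on chromosome 8 from 84661331 to 84662852. Egr2, which encodes another zinc finger factor of the Egr1 family and is not in the rule, lies on chromosome 10 from 67535475 to 67542188. Spry2, which encodes the Sprouty protein described below, lies on chromosome 14 from 105891947 to 105896819. The 250 bases before the transcription start are shown for Fos and Junb as genes of the rule, for Egr2 as a related gene outside it, and for Spry2 as the feedback gene with the most counts. The Fos window is chr12:85473640-85473889 on the plus strand, the Junb window chr8:84978749-84978998 on the minus strand, the Egr2 window chr10:67537619-67537868 on the plus strand and the Spry2 window chr14:105896820-105897069 on the minus strand, all 5′ to 3′ from RefSeq on GRCm38.p6. Capitals mark matches to TGACG, the core of the element bound by CREB, on either strand, and to the CArG box bound by serum response factor.
Fos: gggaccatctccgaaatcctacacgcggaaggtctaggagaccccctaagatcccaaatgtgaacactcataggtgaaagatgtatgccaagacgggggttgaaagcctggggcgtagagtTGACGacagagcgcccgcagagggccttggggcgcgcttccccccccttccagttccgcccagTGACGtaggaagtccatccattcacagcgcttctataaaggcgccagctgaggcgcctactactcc
Junb: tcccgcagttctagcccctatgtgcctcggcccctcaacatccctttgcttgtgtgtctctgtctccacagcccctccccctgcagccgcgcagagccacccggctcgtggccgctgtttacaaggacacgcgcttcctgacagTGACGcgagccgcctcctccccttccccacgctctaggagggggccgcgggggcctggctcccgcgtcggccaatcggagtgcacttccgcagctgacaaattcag
Egr2: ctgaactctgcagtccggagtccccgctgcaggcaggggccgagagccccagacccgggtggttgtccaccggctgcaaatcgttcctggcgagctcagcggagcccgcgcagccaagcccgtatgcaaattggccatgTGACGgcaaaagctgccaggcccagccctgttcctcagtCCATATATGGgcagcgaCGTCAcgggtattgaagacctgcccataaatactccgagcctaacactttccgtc
Spry2: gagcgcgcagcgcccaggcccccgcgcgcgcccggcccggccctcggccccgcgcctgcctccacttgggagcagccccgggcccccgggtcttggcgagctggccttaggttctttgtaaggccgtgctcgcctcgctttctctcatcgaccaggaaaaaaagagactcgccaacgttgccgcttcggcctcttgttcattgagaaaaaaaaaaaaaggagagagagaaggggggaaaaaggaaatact

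In the Fos window TGACG began 129 and 66 bases before the start, and in the Junb window it began 106 bases before it. The Egr2 window, 1 of 5 that the RefSeq table holds for that gene, had a CArG box from 72 to 63 bases before the start, with TGACG from 111 to 107 bases on the plus strand and from 55 to 51 bases on the minus strand. It lies inside the gene span given above and was chosen for its matches; it overlaps other Egr2 windows that hold the same box, and the window at the start of that span, chr10:67535249-67535498, had 0 matches. In the Spry2 window none of the searched motifs was found. The motifs searched on both strands were the CArG box, TGACG, the longer TGACGTCA that contains it, the AP-1 element TGANTCA and the Egr element GCGNGGGCG. Windows were held for 50 of the 67 genes of the rule and the early lists, not for Egr1 and Ier2. TGACG stood in 37 of their 71 windows (52.1%), against 17.8% of all 32851 windows of the same length. By gene it stood in 30 of the 50 (60.0%), against 19.8% of all genes. A CArG box stood in 5 of the 71 windows (7.04%), against 1.47% of all windows. However, 4 of these 5 were windows of Egr2, so 2 of the 50 genes (4.0%) had one, against 1.62% of all genes. The Egr element stood in 14 of the 71 windows (19.7%, against 4.70% of all windows). TGACGTCA stood in 5 (7.04%, against 1.55%). The AP-1 element was less frequent than over all windows, in 2 of the 71 (2.82%, against 6.75%). A match describes letters and is not a shown binding site.

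Members held few UMIs of the rule genes each. Of the 217, 130 had 3 UMIs in sum, 54 had 4 and 33 had 5 or more, and the highest had 11. Just outside the rule stood 336 cells with 2 UMIs that met the division limit, and 5 cells with 3 or more UMIs but with 2 UMIs of the division genes; in all, that limit left out 25 cells. Ier2 was detected in 196 members (90.3%), Egr1 in 173 (79.7%), Fos in 67 (30.9%) and Junb in 11 (5.07%). The most frequent combination was Egr1 with Ier2, in 106 members, followed by Egr1 with Fos and Ier2 in 40. Ier2 alone made up the sum in 23 members and Egr1 alone in 10, and 0 members held UMIs of all 4 genes.

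**Figure D1:**
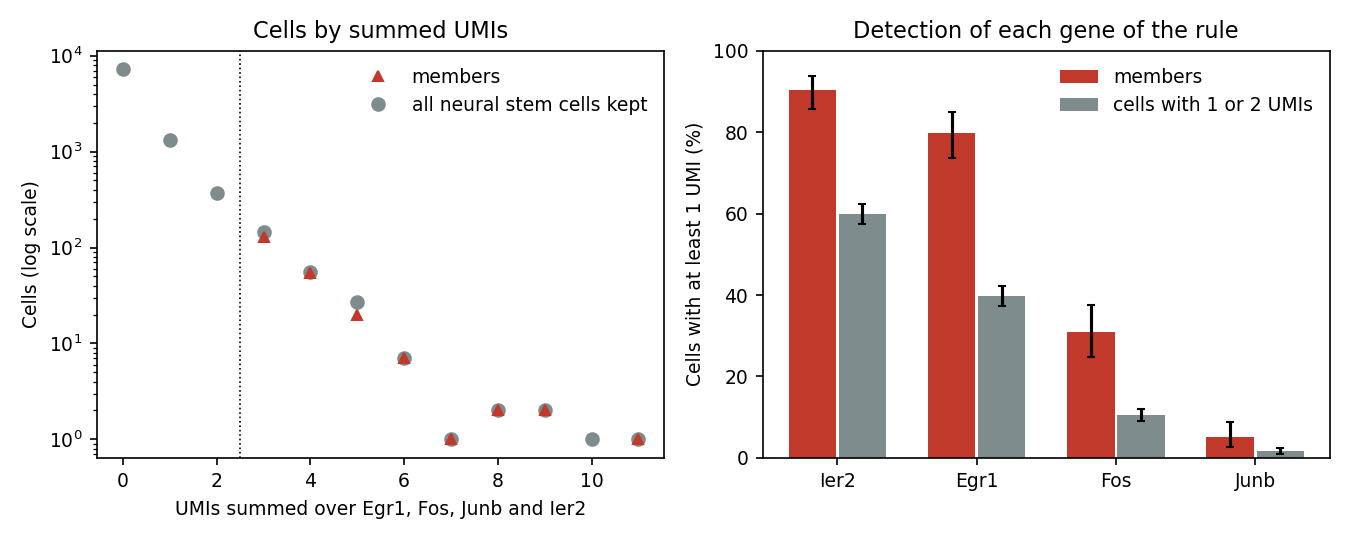
Number of neural stem cells by UMIs summed over Egr1, Fos, Junb and Ier2 (left, log scale, members as triangles, all cells kept as circles, dotted line at the limit of the rule) and share of cells with at least 1 UMI of each gene (right, bars with exact 95% intervals, members beside cells with 1 or 2 UMIs). Most members have 3 UMIs, and Ier2 and Egr1 are found in most of them.

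Depth set who could be a member. With cells split by total UMIs into 4 groups of like size, 0.790% of those with 500 to 1108 UMIs were members, and the shares in the deeper groups were 1.57%, 2.66% and 4.46%. Over the same groups, shallow to deep, the 4 genes together stood at 187, 192, 217 and 201 CPM (the usual scaling of UMIs to the total of all genes), a much narrower range. The median member had 1698 UMIs and the median neural stem cell 1379. Each member was therefore paired with 1 neural stem cell with 0 UMIs of the 4 genes and at most 1 UMI of the division genes, at a total outside the 4 genes within 10% of its own. This gave 212 pairs; 5 members with 8969 to 18458 UMIs outside the 4 genes had no partner. Matched members held 450174 UMIs and matched cells 448768. Malat1 took 26.1% of UMIs in matched members and 26.9% in matched cells, mitochondrial genes 1.47% and 1.45%, and ribosomal protein genes 11.6% and 11.5%.

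The cells carried neural progenitor messages. Fabp7, a fatty acid binding protein of radial glia, had 3987 CPM in members and 4049 CPM in matched cells, Sox2 had 291 and 274 CPM, and Nes, which encodes nestin, had 158 and 138 CPM. Endothelial, pericyte, microglial and most neuronal markers were rare in both groups, whereas astrocyte genes summed to 2454 UMIs in members and 2902 in matched cells and oligodendrocyte lineage genes to 837 and 690. The 9 endothelial genes summed to 0 UMIs in members and 1 in matched cells, and the 11 pericyte and fibroblast genes to 1 and 0. Of the 11 microglia and macrophage genes 10 were at 0 in members and 9 in matched cells. Of 18 neuron lineage genes 10 were at 0 in each group, and the list summed to 153 UMIs in members and 129 in matched cells, of which Map2, a microtubule-associated protein, gave 127 and 102.

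Each gene of the rule was also read in cells chosen by the other 3, again with 3 or more UMIs and against depth-matched cells with 0. The rule that groups these 4 genes was chosen with earlier results of these data known. The ratios therefore describe how the genes go together and are not independent support. Egr1 had 45 UMIs in 78 chosen cells, against 12 in 78 matched cells, a 3.74-fold higher level (1.95 to 7.78). Fos had 38 UMIs in 178 chosen cells and 9 in 178 matched cells, 4.21-fold (2.00 to 9.89). For Ier2 the counts were 55 and 8 in 53 pairs, 6.94-fold (3.29 to 16.9). For these 3 genes the interval lies above 1. Junb had 6 UMIs in 207 chosen cells and 1 in their matched cells, and its ratio of 5.99 had an interval from 0.726 to 275, which includes 1.

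**Figure D2:**
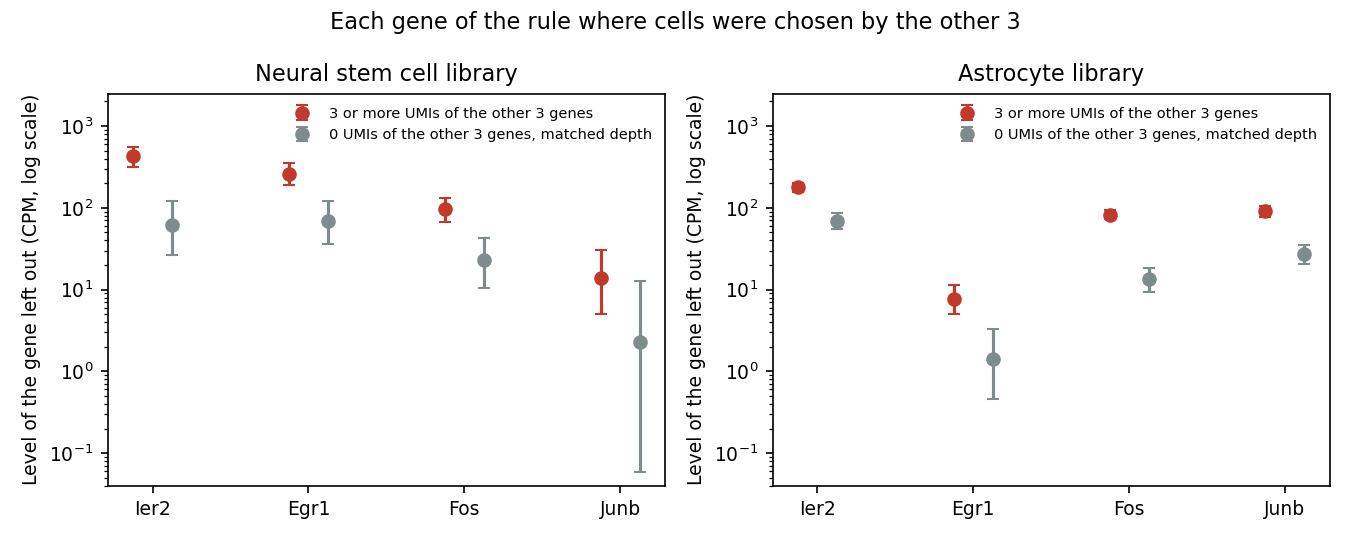
Level of each gene of the rule, in CPM on a log scale, in cells chosen by the other 3 genes (red) and in depth-matched cells with 0 UMIs of those (grey), in the neural stem cell library (left) and the astrocyte library (right), with exact 95% intervals. In neural stem cells Egr1, Fos and Ier2 are higher in the chosen cells, by 3.74, 4.21 and 6.94-fold.

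Of the early transcription factors outside the rule, Egr2 stood out. It had 18 UMIs in 17 of 212 matched members, against 0 UMIs in 212 matched cells. Set against a floor of 3 counts over all matched cells this is 5.98-fold, and the exact interval of the ratio begins at 4.38. In all 217 members Egr2 had 36.6 CPM (22.1 to 57.2), in the 1532 cells with 1 or 2 UMIs 12.96 CPM (9.03 to 18.0) and in the 6783 cells with 0 UMIs 5.13 CPM (3.81 to 6.76). The order of the levels followed the UMIs of the 4 genes, and the intervals of the 3 groups did not overlap. Egr3, a further factor of the family, had 9 UMIs in 8 members and 0 UMIs in matched cells. Bhlhe40, a helix-loop-helix repressor, had 12 UMIs in 12 members and 1 UMI in matched cells; against all 6783 cells with 0 UMIs its level was 27.0 CPM in members and 10.7 CPM, 2.53-fold (1.34 to 4.44). Egr2, Egr3 and Bhlhe40 were under the count of 20 UMIs used for list genes and were chosen after their values were seen. Among 6722 genes with at least 10 UMIs over the pairs, outside the 12 of the rule, Egr2 ranked first. Its log2 ratio of members over all comparison cells was 1.73, with a pseudocount of 10 CPM. Egr2 met that count through members alone, so the rank describes the members and supports nothing.

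Most other early genes gave too few counts or differed little. A list gene was measured if it had 20 UMIs over both groups, and called if its log2 ratio, with 10 CPM added to each level, passed 1.5-fold; over all 4486 genes so measured 6.49% were higher and 4.44% lower in members. Of 12 further AP-1 genes 3 were measured and 0 passed. Jun had 19 UMIs in members and 13 in matched cells, 1.46-fold (0.683 to 3.21), Jund had 86 and 69, 1.24-fold (0.895 to 1.73), and Mafg, a small Maf protein, had 11 and 10. Fosb and Fosl1 had 0 UMIs in both groups. Jund moved with the comparison used. Against all cells with 0 UMIs, whose median depth of 1324 UMIs was lower, it had 185 CPM in members and 91.2 CPM, 2.03-fold (1.63 to 2.51). With these cells weighted to the depths of the members it had 133 CPM, and the ratio was 1.40.

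Of 20 other immediate early transcription factors only Klf10 reached 20 UMIs, with 13 in members and 9 in matched cells. Nr4a1 had 0 UMIs in members and 1 in matched cells, Npas4 had 0 in both, and Myc had 5 and 7. Among 31 early genes that do not encode transcription factors 10 were measured, 2 were higher and 0 were lower. Zfp36l2, which destabilises messages with AU-rich elements, had 30 UMIs in members and 13 in matched cells, 2.30-fold (1.16 to 4.805), but 67.5 CPM in all members against 57.9 CPM in comparison cells weighted to the same depths. Btg1, an antiproliferative factor, had 53 and 33 UMIs, 1.60-fold (1.02 to 2.55), but only 1.15-fold (0.874 to 1.48) against all cells with 0 UMIs. Btg2, Zfp36l1, Mcl1, Phlda1, Rhob, Pim1, Tob1 and Gadd45g had ratios from 0.941 to 1.43 against matched cells, all with intervals that include 1. Against the weighted cells neither Zfp36l2 nor Btg1 passed, and Phlda1 was the 1 gene of this list that did, at 38.6 CPM in members and 18.4 CPM. For the weighted cells, here and in the lists below, the share over all genes was taken only at 50 CPM. There 1.36% of 2419 genes were higher and 0.703% lower. Of 15 heat shock genes, which stress of the cells can induce, 7 were measured and 0 passed 1.5-fold. Hspa1a, Hspa1b, Hspb1 and Bag3 had 0 UMIs in members and 1, 0, 0 and 2 in matched cells. They were too sparse to measure, so the count cannot show whether they differed. The list summed to 2117 UMIs in members and 1938 in matched cells, and Hspa8, a constitutive chaperone, was at 704 CPM and 582 CPM (1.21-fold, 1.02 to 1.43).

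**Figure D3:**
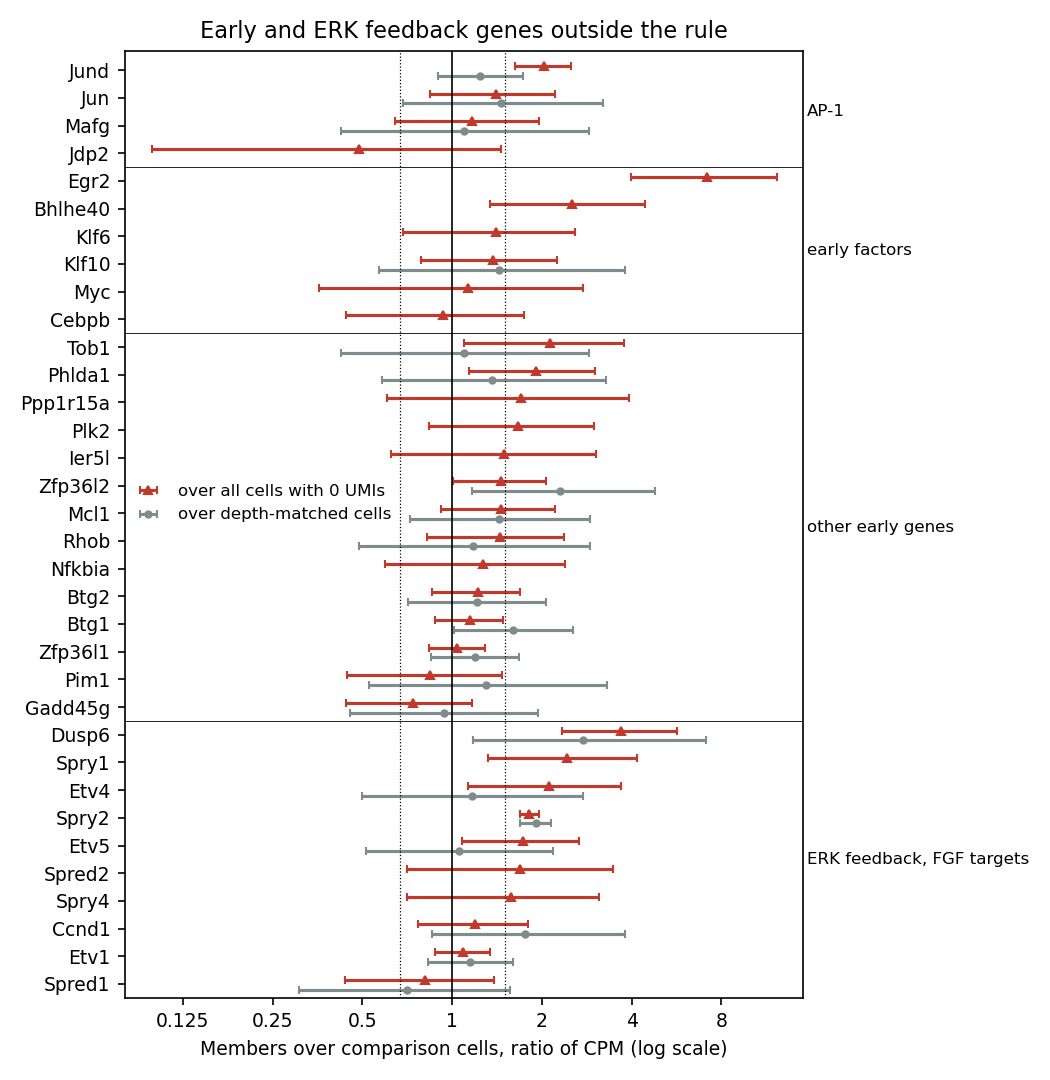
Ratio of CPM of members over all neural stem cells with 0 UMIs (red triangles) and over depth-matched cells (grey circles, for genes with at least 20 UMIs over the pairs), on a log scale with exact 95% intervals, for early and ERK feedback genes outside the rule with at least 10 UMIs over the pairs. Dotted lines stand at 1.5-fold in either direction, and Egr2 at 7.14-fold lies farthest to the right. Egr2 met the limit of 10 UMIs through members alone.

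The ERK feedback and FGF target list had 7 of 18 genes measured, with 3 genes higher in members and 0 lower. The median log2 ratio was 0.19 in this list and 0.03 over all genes with 20 UMIs. Spry2, a Sprouty protein that restrains signalling from growth factor receptors to ERK, had 805 UMIs in members and 420 in matched cells, 1.91-fold (1.70 to 2.16). Per cell, members held 0 to 16 UMIs of Spry2 with a median of 3, and matched cells 0 to 17 with a median of 1. The message was found in 181 of 212 members (85.4%) and 128 of 212 matched cells (60.4%), so the 2 ranges overlap and the typical cell differs. Dusp6, the phosphatase of ERK, had 22 UMIs in members and 8 in matched cells, 2.74-fold (1.18 to 7.12), and 3.70-fold (2.33 to 5.67) against all cells with 0 UMIs. Ccnd1, which encodes cyclin D1, had 23 and 13 UMIs, 1.76-fold with an interval from 0.857 to 3.79, but 1.20-fold against the weighted cells, where 2 genes of the list passed. Spry1, with 13 and 5 UMIs, was under 20 in sum and was chosen after its values were seen. It had 28.9 CPM in all members and 11.9 CPM in all cells with 0 UMIs, 2.43-fold (1.32 to 4.18). Also under 20 were Spry4 with 6 and 6 UMIs, Spred2 with 6 and 5 and Spred3 with 4 and 0. The ETS factors Etv1, Etv4 and Etv5 had 1.15, 1.16 and 1.06-fold ratios against matched cells, all with intervals that include 1. Against all cells with 0 UMIs Etv4 was 2.12-fold (1.13 to 3.70) and Etv5 1.74-fold (1.08 to 2.66). Etv1 was 1.09-fold (0.874 to 1.34) there. Spred1, a further ERK inhibitor, had 12 and 17 UMIs.

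Of 26 growth factor receptors and members of the ERK cascade 16 were measured, 3 were higher and 0 were lower. Pdgfra, the receptor of platelet-derived growth factor that marks oligodendrocyte precursors, had 20 UMIs in 14 members and 4 UMIs in 4 matched cells, 4.98-fold (1.67 to 20.1). Nras, a RAS protein, had 44 and 23 UMIs, 1.91-fold (1.13 to 3.31), and the FGF receptor Fgfr1 had 20 and 11, 1.81-fold (0.828 to 4.19). Against the comparison cells weighted over depth Nras was 1.47-fold and Fgfr1 1.23-fold, so that Pdgfra, at 3.32-fold, was the 1 gene of the list that passed. Egfr, the receptor of EGF, had 68 UMIs in members and 67 in matched cells. Of 7 measured factors that act on early promoters, among them Creb1 with 11 and 10 UMIs, 0 passed 1.5-fold.

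Beyond these lists, 2419 genes had at least 50 CPM over the pairs. Of these 67 (2.77%) were higher in members and 61 (2.52%) lower past 1.5-fold; the interval of the ratio left out 1 for 40 of the higher and 37 of the lower. Against all comparison cells, weighted over 5 depth bins, 33 of the 2419 genes (1.36%) were higher and 17 (0.703%) lower, and 16 and 11 genes passed both ways. Most single calls thus held in 1 of the 2 comparisons. Among the highest by log2 ratio were Nrgn, Rasl11a, Olig2, Tcf12, Gas1, Spry2, Cct5, Tpgs2, Srgap2, Kbtbd11, Ppid, Stmn3, Stub1 and Ppp4r3a, and of these Rasl11a, Olig2, Gas1, Spry2, Ppid and Stub1 passed both ways. Rasl11a, a RAS-like GTPase, had 45 UMIs in 30 members and 15 UMIs in 12 matched cells, 2.99-fold (1.64 to 5.78), and 92.6 CPM in all members against 42.0 CPM in the weighted cells. Gas1, a membrane protein of growth arrest and Hedgehog signalling, had 42 and 19 UMIs, 2.20-fold (1.25 to 4.01). Nrgn, a calmodulin-binding neuronal protein, had 45 and 14 UMIs, but 90.6 CPM in all members against 60.1 CPM in the weighted cells. Tcf12, a helix-loop-helix factor, had 45 and 20 UMIs, 2.24-fold, and 1.17-fold against the weighted cells.

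Olig2, the helix-loop-helix factor of oligodendrocyte progenitors that cultured neural stem cells also express, had 104 UMIs in 67 members and 46 UMIs in 33 matched cells, 2.25-fold (1.58 to 3.26). Of 6 measured oligodendrocyte lineage genes it was the 1 that passed 1.5-fold, and 0 were lower. Its neighbour in function Olig1 had 906 CPM in members and 693 CPM in matched cells, 1.31-fold (1.13 to 1.52), and Lhfpl3 had 52 and 34 UMIs. Of 18 measured progenitor genes Hes1 and Hopx were higher and Sox3 was lower. Hes1, a repressor that Notch induces, had 59 UMIs in members and 37 in matched cells, 1.59-fold (1.04 to 2.47), and Hopx, a homeodomain protein of quiescent progenitors, had 40 and 23 UMIs, 1.73-fold (1.01 to 3.03). Sox3, a factor of early neural progenitors, had 33 and 52 UMIs, a ratio of 0.633 (0.396 to 0.997). Against the weighted cells Hopx was 1.23-fold and Sox3 0.689-fold, and neither passed, while Hes1 did at 1.87-fold. The other Notch pathway genes gave 0 of 7 past 1.5-fold.

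The lowest log2 ratios were those of Dqx1, Car3, Smad4, B3gat1, Thrsp, Zfp322a, Rnd2, Krcc1, Acsl3, Acyp1, Gja1, Pam16, Cby1, Rpf2 and Pcdh17, and of these Dqx1, B3gat1, Thrsp, Acsl3 and Gja1 passed both ways. Thrsp, a regulator of fatty acid synthesis, had 17 UMIs in 7 members and 37 UMIs in 17 matched cells, and 34.7 CPM in all members against 103 CPM in the weighted cells. Gja1, the astroglial gap junction protein connexin 43, had 21 and 39 UMIs, 1.86-fold lower (1.07 to 3.33). Dqx1, a predicted helicase, had 11 UMIs in 2 members and 53 UMIs in 8 matched cells, so few cells carry that difference. Car3, a carbonic anhydrase, had 39 and 120 UMIs, but 92.6 CPM in all members against 131 CPM in the weighted cells. Of 11 measured astrocyte genes Gja1 was the 1 that passed 1.5-fold against matched cells. Against the weighted cells 2 of the 11 were lower, Gja1 among them, and 0 were higher. Apoe, which encodes the lipid carrier apolipoprotein E, had 4476 CPM in members and 5301 CPM in matched cells, a ratio of 0.844 (0.795 to 0.896).

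Genes of the cell cycle outside the rule were sparse, and the rule itself had limited them. Of 4 measured S phase genes Pclaf and Dut were higher, at 23 and 13 UMIs and at 16 and 8 UMIs, and of 3 measured G2 and M phase genes Cenpa and Smc4 were lower, at 7 and 14 UMIs and at 15 and 26 UMIs; all 4 intervals include 1, and against the weighted cells Cenpa was 1.21-fold and Smc4 0.830-fold. Before the division limit, the 613 cells with 2 or more UMIs of division genes had 54.5 CPM of Egr1 (44.0 to 66.7), and the cells within the limit had 74.0 CPM (69.4 to 78.8). Ier2 stood at 94.5 CPM (80.6 to 110) in dividing cells and 109 CPM (104 to 115) in the others, with overlapping intervals. Chromatin modifiers gave 3 higher of 20 measured, Hdac1, Suz12 and Ezh2, with 20 and 7, 17 and 6, and 38 and 22 UMIs; of these Hdac1 alone passed against the weighted cells. In the cholesterol synthesis list 1 of 8, Cyp51, passed, with 17 and 8 UMIs, but was 1.15-fold against the weighted cells.
The stress kinase, unfolded protein response, glycolysis, nuclear noncoding RNA and splicing factor lists had 0 of 2, 2, 10, 2 and 16 measured genes past 1.5-fold. The interferon and NF-kappaB lists had 0 measured genes.

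To see whether levels followed the amount of early message, cells were thinned to 1000 UMIs outside the 4 genes. They were grouped by their UMIs of the 4 genes before thinning, so the classes still depend on depth. Of these cells 5540 had 0, 1369 had 1 or 2, 173 had 3 or 4 and 32 had 5 or more. Spry2 had 918, 1529, 1887 and 1994 CPM in that order. The step to 1 or 2 UMIs lies outside both intervals, whereas the last 2 classes do not differ beyond theirs. Olig2 had 118, 159, 254 and 405 CPM, and Hes1 had 68.4, 101, 156 and 249 CPM. Both values were higher at each step, but the intervals of the last 2 classes overlap, and for Hes1 so do those of 1 or 2 UMIs (84.6 to 119) and of 3 or 4 UMIs (103 to 227). Dusp6 had 14.6, 25.5 and 46.2 CPM in the first 3 classes and 0 UMIs in the last, whose exact interval reaches 115 CPM. In the other direction Thrsp had 83.9, 45.3 and 28.9 CPM and then 0 UMIs, and Sox3 had 130, 95.6, 63.5 and 31.2 CPM; for both genes the first step alone lies outside the intervals. Malat1 took 28.5%, 27.7%, 27.1% and 25.6% of UMIs over the same classes, and the median UMIs outside the 4 genes before thinning were 1324, 1496.5, 1653 and 2192; their part in these results was not tested.

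**Figure D4:**
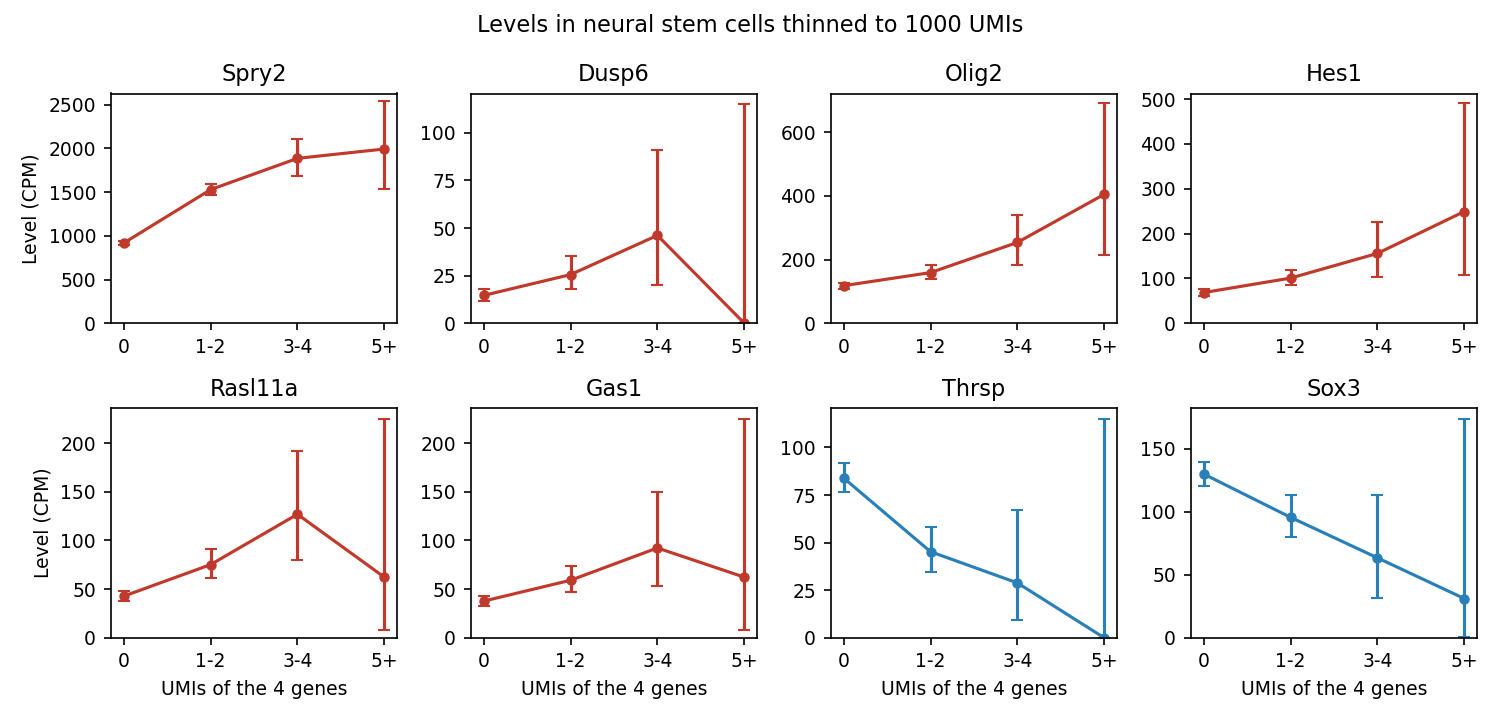
Levels in CPM, with exact 95% intervals, in neural stem cells thinned to 1000 UMIs, by UMIs of Egr1, Fos, Junb and Ier2 before thinning. The values of Spry2, Olig2 and Hes1 are higher at each step and those of Thrsp and Sox3 lower, with overlapping intervals at the later steps that are wide in the 32 cells with 5 or more UMIs.

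The members did not form a cluster of their own when the rule genes and the 3 lists of early genes were left out of the clustering; ERK feedback genes were kept in it. At resolution 0.5 all 6 clusters held members. Cluster 0, led by Thrsp, Rnase1 and Gja1, held 27.8% of matched members and 37.7% of matched cells, and cluster 2, led by Ppp1r16b, Lhfpl3 and Chd3, held 35.4% and 29.2%. At resolution 1.0 a smaller cluster 0 with the same leading genes held 26 of 212 matched members (12.3%, 8.17 to 17.5) and 53 of 212 matched cells. Cluster 7, led by Lhfpl3, Pdgfra and Sox10, held 20.3% (15.1 to 26.3) and 11.8% (7.78 to 16.9). It was given no cell type name. Cluster 1 at that resolution, with Rasl11a, Spry2, Hopx and Dusp6 among its leading genes, held 26.4% and 23.1%. Cluster 3, led by Ubb, Jund and H2afx and with a median of 3481.5 UMIs at resolution 0.5, held 28 members, 11.6% of its 242 cells. The 4 genes were present in every large cluster, at unequal levels. At resolution 0.5 Egr1 had 60.0, 94.4 and 75.02 CPM in clusters 0, 1 and 2. At resolution 1.0 Egr1 had 117 CPM (99.1 to 136) in cluster 7 and 48.8 CPM (40.8 to 57.9) in cluster 0. Ier2 had 193 CPM (170 to 217) and 60.3 CPM (51.4 to 70.3) there. Fos had 35.2 and 22.9 CPM and Junb 1.47 and 2.59 CPM, with overlapping intervals.

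Within single clusters, a description added after seeing the data and without depth matching, Spry2 was higher in members than in cells with 0 UMIs in each of the 4 clusters that held at least 20 members. The ratio was 2.23 (1.92 to 2.58) in cluster 0, 1.55 (1.35 to 1.77) in cluster 1, 2.46 (2.12 to 2.84) in cluster 2 and 1.42 (1.16 to 1.75) in cluster 3. Egr2 was 19.1-fold (5.04 to 63.6), 7.53-fold (1.77 to 24.8) and 5.38-fold (1.81 to 13.3) higher in clusters 0, 1 and 2, from 5, 4 and 6 UMIs in members. In cluster 3 its ratio of 6.42, from 4 UMIs in members and 1 in the other cells, had an interval from 0.635 to 316, which includes 1. The ratio of Olig2 varied among clusters, with overlapping intervals. It was 1.90 (0.749 to 4.03) in cluster 0, from 7 UMIs in members, and 1.96 (1.18 to 3.105) in cluster 1. In cluster 2 it was 1.16 (0.794 to 1.63), with 264 CPM in members and 229 CPM in cells with 0 UMIs, and in cluster 3 it was 0.942 (0.661 to 1.33). Median depth in clusters 0 to 2 was 1489 to 1725 UMIs in members and 1261 to 1386 UMIs in the comparison cells, and in cluster 3 it was 3749 and 2515.5 UMIs.

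The same rule met different cells in the other libraries. Without thinning it took 217 cells (2.37%) of the neural stem cell library, 599 (6.10%) of the astrocytes and 20 (0.134%) of the MIM-treated astrocytes, libraries whose median depths were 1379, 5089 and 3156 UMIs. With each cell thinned to 1000 UMIs, which left out 1459, 351 and 973 shallower cells, the shares were 0.937% (0.734 to 1.18), 0.306% (0.205 to 0.440) and 0.0429% (0.0157 to 0.0933). The order of neural stem cells and astrocytes thus turned round at equal depth. The genes differed too. Egr1 was found in 6.22% of neural stem cells, 0.148% of astrocytes and 0.129% of MIM-treated astrocytes at 1000 UMIs, whereas Junb was found in 0.260%, 3.48% and 0.114%. Fos was found in 1.69%, 2.02% and 0.193%, and Ier2 in 9.24%, 6.82% and 4.28%. Among the 20 MIM-treated cells that met the rule, Ier2 gave 62 UMIs and Egr1 gave 5. Culture, medium and library cannot be told apart in these values.

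**Figure D5:**
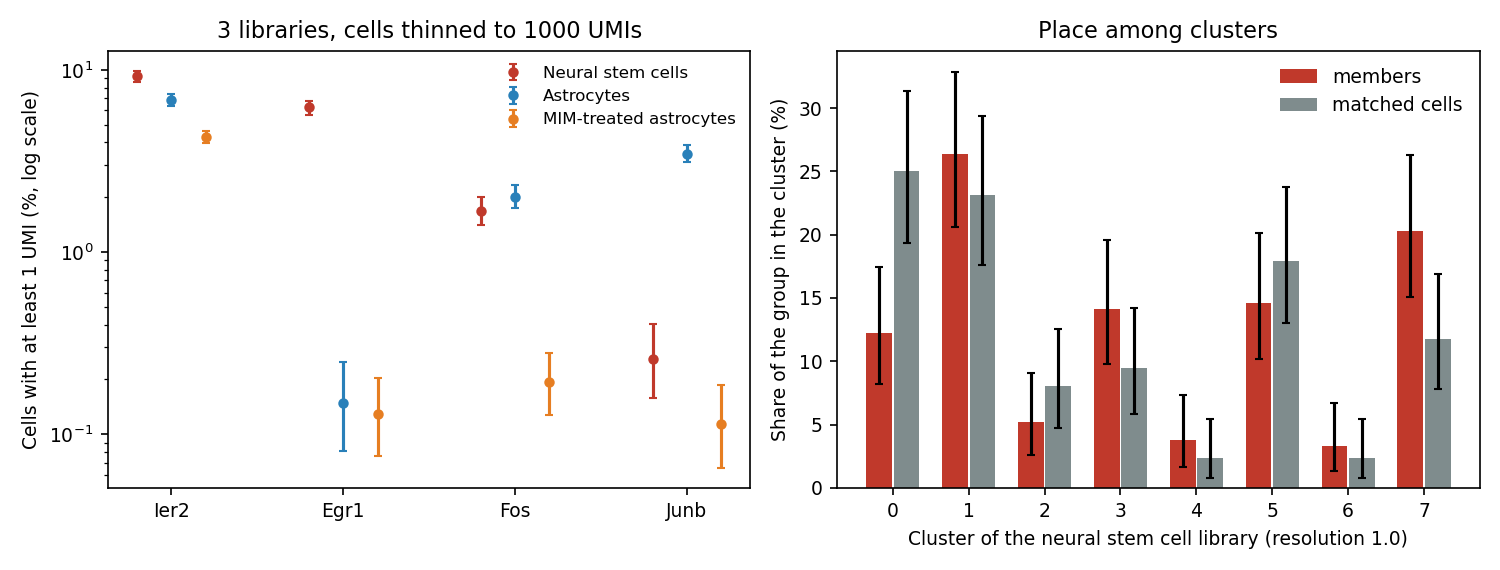
Share of cells with at least 1 UMI of each gene of the rule in the 3 libraries at 1000 UMIs per cell (left, log scale) and share of members and of matched cells in each cluster of the neural stem cell library (right), with exact 95% intervals. Egr1 is found in 6.22% of neural stem cells and Junb in 3.48% of astrocytes, and cluster 0 of the finer clustering holds 26 members and 53 matched cells.

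The 599 astrocytes that met the rule were set against 599 depth-matched astrocytes of their own library. Junb was detected in 63.4% of them and Egr1 in 8.35%. Genes left out of the choice were again higher, at 5.40-fold (2.05 to 17.9) for Egr1, 6.22-fold (4.36 to 9.10) for Fos, 3.32-fold (2.45 to 4.56) for Junb and 2.56-fold (2.00 to 3.31) for Ier2. Of 2586 genes at 50 CPM, 4 (0.155%) were higher and 1 (0.0387%) lower past 1.5-fold, and of 9719 genes at 20 UMIs 14 (0.144%) and 5 (0.0514%). At 50 CPM the 4 higher genes were Lcn2, Cebpd, Jun and Gadd45g, and the lower one was Nnat. Lcn2, a secreted protein of reactive astrocytes, had 138 CPM in rule cells and 56.7 CPM in matched cells. Cebpd had 457 and 228 CPM, Jun 84.5 and 49.6 CPM and Gadd45g 414 and 260 CPM. At 20 UMIs, 1 of 7 measured AP-1 genes outside the rule, 2 of 9 other early transcription factors and 5 of 25 other early genes were higher. In these 3 lists 0 genes were lower. In neural stem cell members Lcn2 had 0 UMIs, and Cebpd had 0 UMIs, against 4 in matched cells. Of 1783 genes at 50 CPM in both libraries 0 passed 1.5-fold in both. Lcn2, Cebpd, Jun and Gadd45g were under 50 CPM over the neural stem cell pairs and so not among them. Of the astrocyte calls only Nnat could have passed in both, so this count cannot show whether the libraries share a difference. Spry2 had 71.0 CPM in astrocyte rule cells and 45.7 CPM in their matched cells, 1.55-fold (1.27 to 1.90), under the size used once 10 CPM is added. Rasl11a was at 384 and 330 CPM there, 1.16-fold, and Gas1 at 46.0 and 50.9 CPM. The difference between the libraries in these ratios was not tested.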

How the data were processed

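The authors deposited whole UMI counts for 31053 genes in 3 libraries, aligned and counted by Cell Ranger 3.0.2 against mm10 as packaged by 10x, per the labels' protocols; the submitters' processing notes also name Seurat 3.1.1 without its role. Every deposited barcode had at least 500 UMIs; the totals were 14696853, 50598967 and 50915129 UMIs in the neural stem cell, astrocyte and MIM-treated libraries. Barcodes with at least 200 genes and at most 20% mitochondrial UMIs were kept, which removed 12, 7 and 13. The neural stem cell library shared 25 barcodes with the astrocytes and 32 with the MIM-treated cells, among them 2 and 1 members. Scrublet called 0 neural stem cells as doublets, so no doublet was removed and doublets may remain. Why it called 0 was not tested. In 1 alternative the highest 8% of its scores were dropped, which held 12.3% of matched members and 15.6% of matched cells.

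Cells were paired without replacement. UMIs were summed over cells; CPM used all UMIs as total. Intervals were exact Poisson for levels, exact conditional binomial for ratios and Clopper-Pearson for shares, at 95%. Log2 ratios used a pseudocount of 10 CPM, which understates low genes. The 15 highest and 15 lowest log2 ratios at 50 CPM were named, except sex-linked, haemoglobin, ribosomal protein and mitochondrial genes and clone-like names, with list genes of the largest ratios and all measured early genes; some items that this rule takes in are not reported here. Members, gene lists and rules were chosen with earlier results of these data known. Clustering scaled cells to 10000 UMIs and used 2000 variable genes, 30 components, 15 neighbours and the Leiden method, without 75 rule and early genes. Promoter windows came from RefSeq on GRCm38.p6; those of Egr1, Ier2, Hes1 and Egr3 were not used here. Code was tested on simulated data. Tools were scanpy 1.11.5, anndata 0.12.19, igraph 0.11.9, scikit-learn 1.9.0, scipy 1.17.1, numpy 2.4.6, pandas 2.3.3 and matplotlib 3.10.9 in Python 3.11.15, and edgeR 4.0.16 in R 4.3.3 for TMM factors.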

Additional observations from a re-analysis of the deposited data

How the results depend on the processing

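No paired analysis was possible because each group was 1 library. The number of genes past the size rule depended strongly on settings, from 67 higher and 61 lower as reported. The higher count became 135 with totals without Malat1, 104 without mitochondrial and ribosomal protein genes, 114 with each cell weighing the same, 106 with a pseudocount of 1 CPM, 129 without the highest 8% of Scrublet scores, 201 thinned to 1000 UMIs, 34 with all comparison cells weighted and the level taken over them, 19 with members of 2 or more UMIs, 592 with 5 or more, 4 at 2-fold, 333 at 20 CPM, 15 at 100 CPM and 1035 with no filter. The lower count became 111 with totals without Malat1, 168 thinned, 17 weighted, 9 with 2 or more UMIs, 470 with 5 or more, 4 at 2-fold, 226 at 20 CPM, 13 at 100 CPM and 749 with no filter. The cause was not tested.

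The AP-1 count of 0 became 2 with cells weighing the same and 1 with no division limit in the comparison cells, without high Scrublet scores, or without members over 5000 UMIs. The count of 0 other early transcription factors became 1 with cells weighing the same, with matching on all UMIs or with 2 or more UMIs, and 3 with weighted cells. The count of 2 other early genes became 1 with TMM, with matching on all UMIs, with 5 or more UMIs, with 500 genes and 10% mitochondrial UMIs, thinned, or without members over 5000 UMIs. The ERK feedback count of 3 became 1 with 5 or more UMIs and 1 thinned. The number of members became 553 at 2 or more and 33 at 5 or more UMIs. Shares at 2000 UMIs were 2.66% of neural stem cells and 1.06% of astrocytes. The largest cluster held 26.4% of matched members at resolution 1.0. Of 810 recomputed log2 ratios of 54 genes, 5 changed sign, all with 5 or more UMIs (30 pairs): Cby1 at 0.27, Ccnd1 at -0.45, Smad4 at 1.098, Srgap2 at -0.0015 and Tpgs2 at -0.0013. Alternatives that left out members over 5000 UMIs or members without Egr1 and Fos were chosen after seeing the data.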
